A study of Homo sapiens with 7 samples.

Results

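The MAP kinase phosphatases and the Sprouty and SPRED proteins are inhibitors that growth factor and stress signals switch on against themselves. Their 10 genes DUSP1, DUSP4, DUSP5, DUSP6, DUSP10, DUSP14, DUSP16, SPRY2, SPRY4 and SPRED1 were taken by name, out of 19775 genes that the array's annotation names. All 22 probe sets assigned to 1 of these genes alone were read in all 7 arrays. A probe set is a group of short probes that measures 1 transcript region. The brightest probe set of a gene, by its mean over the arrays on the log2 scale, gave its main value. For 9 of the 10 genes that mean reached the filter of 8.07, which is a signal of 269. DUSP6 lay below that filter.

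Receptor tyrosine kinases activate RAS, which starts the kinase chain from RAF through MEK to ERK. Active ERK drives transcription of its own inhibitors: dual-specificity phosphatases remove phosphate from the MAP kinases, while Sprouty and SPRED proteins act upstream, between the receptor and RAF. Other phosphatases of the family act mainly on the stress kinases JNK and p38. HT1080 is an established human fibrosarcoma line with an activated RAS gene, so this chain is active in it without an added growth factor.

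Single cultures of HT1080 cells were hybridised on 1 Affymetrix array each. Added for 2 h were 11.25 ng/ml of catechin, 6.25 ng/ml of epicatechin or taxifolin, 2195 ng/ml of resveratrol, 5% pycnogenol-positive serum or 5% control serum, and the last culture was untreated. All cells had been maintained in medium with fetal bovine serum. Pycnogenol is a bark extract of maritime pine, given to the patients whose serum was used, per the labels. The labels do not say how the untreated culture was handled at the medium change or whether a solvent was used, and do not give the origin of the control serum. With 1 array per group there is no replicate error and no test, and no p-value was computed. A difference is the log2 signal of the culture named first less that of the culture it is set against. Signals of different probe sets were not compared with each other, since probes differ in brightness. In total RNA from a culture, fewer cells with a transcript and less of it per cell cannot be told apart.

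The cultures carried the markers of their label and few of other cells. Of 9 mesenchymal markers 7 passed the filter, against 0 of 7 epithelial and 0 of 5 endothelial markers. Of 7 blood cell markers read, HBB alone passed it, and the list's summed signal ran from 770 to 979 with the test sera and from 678 to 830 in the other 5 cultures. Their part in the results below was not tested. Over all genes the SD of the log2 differences ran from 0.235 to 0.282 in the 10 pairs of cultures without test serum and was 0.277 between the sera.

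Promoter sequence of 3 members is shown because each stands for a different response described below: DUSP1 differed between the sera, SPRY2 was lower with both sera, and DUSP10 was higher with both. Each run is the 250 bases before the outermost listed start of the gene, 5′ to 3′ on the gene's strand, from RefSeq on GRCh38.p14, with no deposited measurement at the sequence itself. They lie on the minus strand at chr5:172771196-172771445, chr13:80341127-80341376 and chr1:221742090-221742339. Capitals mark matches, on either strand, to the cAMP response element half-site TGACG, its full form TGACGTCA, the AP-1 motif TGANTCA, the ETS core CCGGAA and the CArG box of serum response factor.
DUSP1: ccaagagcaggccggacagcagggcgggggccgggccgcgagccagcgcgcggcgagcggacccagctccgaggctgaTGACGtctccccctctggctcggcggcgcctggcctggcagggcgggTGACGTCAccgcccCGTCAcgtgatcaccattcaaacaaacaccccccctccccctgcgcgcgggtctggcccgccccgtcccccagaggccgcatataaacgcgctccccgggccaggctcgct
SPRY2: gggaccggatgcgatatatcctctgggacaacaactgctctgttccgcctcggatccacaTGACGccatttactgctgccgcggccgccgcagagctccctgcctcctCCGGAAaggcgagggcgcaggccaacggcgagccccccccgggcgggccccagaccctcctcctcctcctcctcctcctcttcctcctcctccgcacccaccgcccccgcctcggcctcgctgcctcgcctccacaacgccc
DUSP10: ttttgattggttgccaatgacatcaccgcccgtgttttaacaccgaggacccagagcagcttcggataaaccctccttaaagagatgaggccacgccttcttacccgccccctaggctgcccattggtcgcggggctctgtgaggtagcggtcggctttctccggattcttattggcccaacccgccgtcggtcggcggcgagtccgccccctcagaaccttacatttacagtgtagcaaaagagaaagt

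Promoters of 8 members were listed, and DUSP4 and DUSP5 were not among them. The DUSP1 window held 4 half-sites, of which 2 overlap as the full form whose first base lies at -125, counted back from the start. The full form occurred in 1.75% of 27305 gene windows of the same length and in 1 of the 8 members. A half-site occurred in 21.6% of the windows and in 3 of the 8, DUSP1, SPRY2 and SPRY4. The ETS core occurred in 14.8% of windows and, among the members, in SPRY2. No member window held the AP-1 motif or the CArG box, which occurred in 6.57% and 1.15% of windows. A match describes letters and is no evidence of binding, and its absence says nothing about these factors.

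With both sera, some members were lower than in all 5 cultures without test serum, and DUSP10 and DUSP14 were higher. These sides did not follow the kinase restrained: SPRY4 overlapped the range, and the ERK phosphatase DUSP7, not a member, was higher. DUSP4, DUSP5, SPRY2 and SPRED1 made 4 of 9 members lower, where 16.1% of the 9888 genes past the filter were lower in this way, but DUSP4 and SPRED1 overlapped the range once arrays were centred on their medians. The higher members were 2 of 9, where 13.5% of all genes were higher, so this small count is not read as particular to the members. Thus placement outside the range was frequent over the whole array. The members were chosen with earlier results of these data known, so their counts are no independent check. Over the members, the median of the mean serum level minus the mean level of the 5 other cultures was -0.18 (log2), against -0.010 over all genes.

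**Figure D1:**
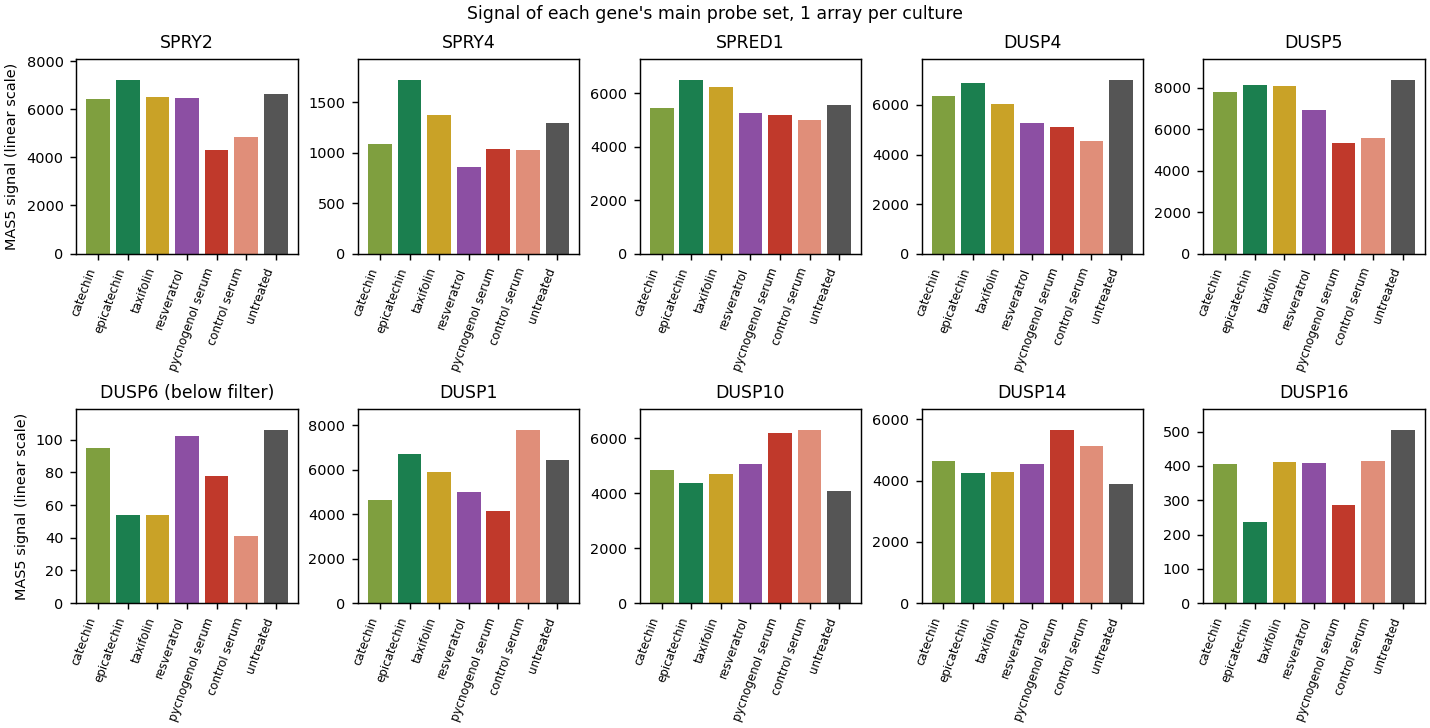
MAS5 signal (linear axis starting at 0, scaled for each gene) of the main probe set of the 10 genes, with 1 bar for the single array of each culture. SPRY2 and DUSP5 are lowest in the bars for pycnogenol serum and control serum, DUSP10 and DUSP14 are highest there, and the DUSP6 bars lie between 41.0 and 106, under the filter's 269.

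Among the upstream inhibitors, SPRY2, a Sprouty protein that acts between receptors and RAS, separated the cultures most clearly. Its signal was 6431 with catechin, 7218 with epicatechin, 6514 with taxifolin, 6456 with resveratrol, 4303 with pycnogenol serum, 4855 with control serum and 6628 untreated. Both serum values lay below all 5 others, with a gap of 0.41 (log2) to the nearest, while the 5 spanned 0.17. SPRY2 has 1 probe set, as do SPRY4, DUSP5 and DUSP14, so no second one could check these genes. For SPRY2 the mean serum level minus the mean of the other 5 was -0.54, and 3.95% of genes had an equal or more negative value. Pycnogenol serum and control serum differed from the untreated culture by -0.62 and -0.45.

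SPRY4, its relative with the same role, behaved otherwise. It read 1086 with catechin, 1723 with epicatechin, 1374 with taxifolin and 855 with resveratrol. The signal was 1037 with pycnogenol serum, 1029 with control serum and 1293 untreated. The serum values thus lay between that of resveratrol, the lowest, and that of catechin, and overlapped the range of the 5. The highest and lowest of all 7 arrays, 1.01 apart on the log2 scale, were both compound cultures.

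SPRED1, which brings the RAS inactivator neurofibromin to the membrane, varied little. It read 5464, 6504, 6236 and 5247 with catechin, epicatechin, taxifolin and resveratrol, 5177 with pycnogenol serum, 5018 with control serum and 5577 untreated. Both serum values were the lowest, but by a gap of only 0.019 (log2), and its other probe sets past the filter overlapped the range of the 5, so 1 of 3 probe sets placed it outside.

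Of the ERK-facing phosphatases, DUSP5, a nuclear phosphatase specific to ERK, lay lower with both sera. It read 7814, 8148, 8081 and 6944 with catechin, epicatechin, taxifolin and resveratrol, 5351 with pycnogenol serum, 5606 with control serum and 8388 untreated. The gap between the groups was 0.31 (log2) and the 5 spanned 0.27. The serum mean minus the mean of the 5 was -0.52, with 4.28% of genes at or below that value. Resveratrol gave the lowest of the 5 values, -0.27 from untreated.

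DUSP4, an inducible nuclear phosphatase of ERK and JNK, was lower on all 3 of its probe sets. The main one read 6357, 6897, 6025 and 5266 with catechin, epicatechin, taxifolin and resveratrol, 5098 with pycnogenol serum, 4564 with control serum and 7012 untreated. The resveratrol value came close to the serum values here, leaving a gap of 0.047 (log2). On the other probe sets the gap was 0.12 and 0.25, and the serum mean minus the mean of the 5 was -0.21 and -0.44, beside -0.38 on the main one. The order of the sera also depended on the probe set: the one with the largest gap read 2387 with pycnogenol serum and 2783 with control serum.

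DUSP6, the cytoplasmic phosphatase specific to ERK and often used as a readout of ERK activity, was at low signal throughout. Its brightest probe set read 94.8, 53.7, 53.8 and 102 with catechin, epicatechin, taxifolin and resveratrol, 78.0 with pycnogenol serum, 41.0 with control serum and 106 untreated. The second brightest stayed at or below 86.3 and the third at or below the floor of 34.9 on all 7 arrays. No detection calls were at hand, so these signals were not shown to be above background, and differences between them are not interpreted.

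**Figure D2:**
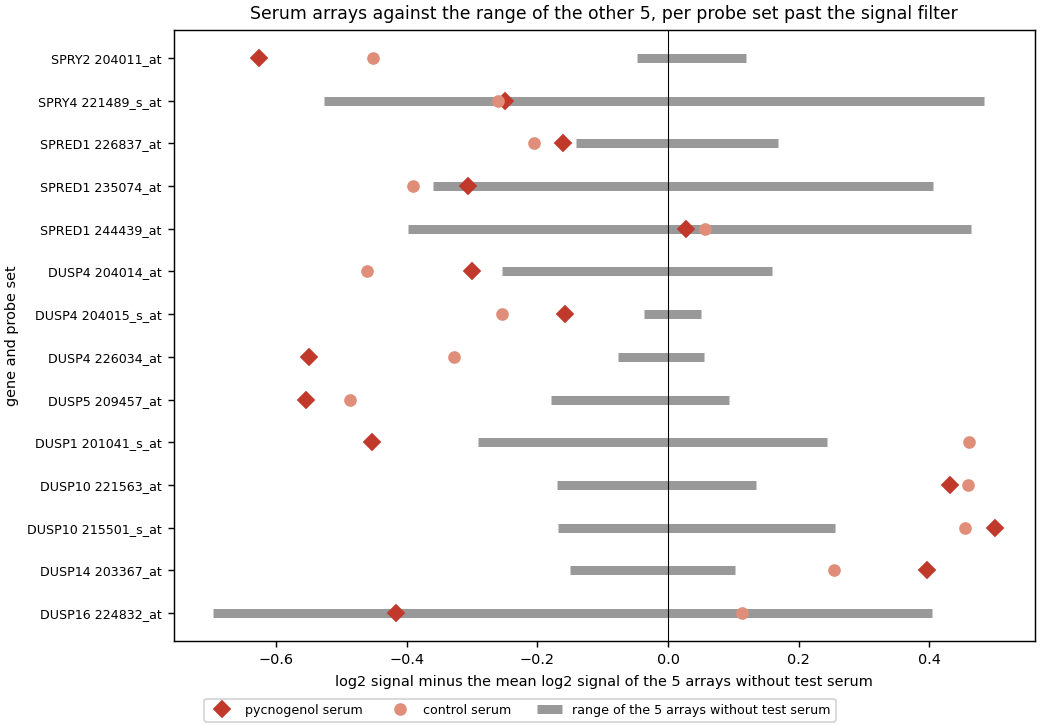
For each of the 14 probe sets past the signal filter, the log2 signal with pycnogenol serum (diamonds) and control serum (circles), set against the range of the 5 arrays without test serum (grey bars), all relative to the mean of those 5. In 6 probe sets both symbols lie below the bar and in 3 above it, and DUSP1 has 1 symbol on either side.

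The phosphatases that act on stress kinases did not move as a group. DUSP10, which dephosphorylates p38 and JNK, was higher with both sera. It read 4850, 4369, 4695 and 5046 with catechin, epicatechin, taxifolin and resveratrol, 6201 with pycnogenol serum, 6318 with control serum and 4085 untreated. The gap to the 5 other cultures was 0.30 (log2), and the serum mean minus their mean was 0.45, with 3.45% of genes at or above it. A second probe set of DUSP10 gave 0.48 and a gap of 0.20. In both probe sets the untreated culture was the lowest of the 7.

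DUSP14, a small atypical phosphatase without the kinase-binding domain of the others, was likewise higher with both sera than with any compound and lowest untreated. It read 4628, 4235, 4291 and 4545 with catechin, epicatechin, taxifolin and resveratrol, 5671 with pycnogenol serum, 5136 with control serum and 3884 untreated. The gap was 0.15 and the mean difference 0.32, and 7.75% of genes had an equal or larger one.

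The sera differed from each other mainly in DUSP1, a nuclear phosphatase of p38 and JNK that is an immediate early gene and a glucocorticoid target. DUSP1 read 4637 with catechin, 6718 with epicatechin, 5894 with taxifolin, 4984 with resveratrol, 4146 with pycnogenol serum, 7813 with control serum and 6430 untreated. Pycnogenol serum gave the lowest of the 7 values and control serum the highest. The difference between the sera was -0.91 (log2), 1.88-fold lower with pycnogenol serum, and 48 of 9888 genes, 0.485%, lay at or below it. The difference from untreated was -0.63 with pycnogenol serum and 0.28 with control serum. These comparisons share the untreated array. The second probe set of DUSP1 was at or under the floor on 5 arrays and the third on all 7, so no further probe set could check the difference, and averaging them in gave -0.30.

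None of the 9 members past the filter differed by 2-fold between pycnogenol serum and control serum, where 0.536% of all genes did in either direction. At 1.5-fold DUSP1 alone was lower, where 2.34% of genes were, and no member was higher, where 1.9% of genes were. The member median was -0.027, against 0.0083 over all genes. DUSP16, a phosphatase of JNK and p38, differed by -0.53 at low signal, 287 with pycnogenol serum and 414 with control serum. The other 7 members lay between -0.17 and 0.16.

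Against the untreated culture, pycnogenol serum gave 4 members lower by at least 1.5-fold, DUSP1, DUSP5, SPRY2 and DUSP16, where 6.08% of genes were, and 1 higher, DUSP10, where 3.94% of genes were. Their median was -0.46, against 0.017 over all genes. With control serum, DUSP4 was lower by 1.5-fold, at -0.62, where 4.66% of genes were, and DUSP10 higher, at 0.63, where 3.17% of genes were, with a median of -0.29 against 0.0076 over all genes. The other DUSP4 probe sets, also past the filter, gave -0.31 and -0.38 with control serum, short of 1.5-fold. No member reached 2-fold with either serum, where 2.24% of genes did with pycnogenol serum and 1.2% with control serum.

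**Figure D3:**
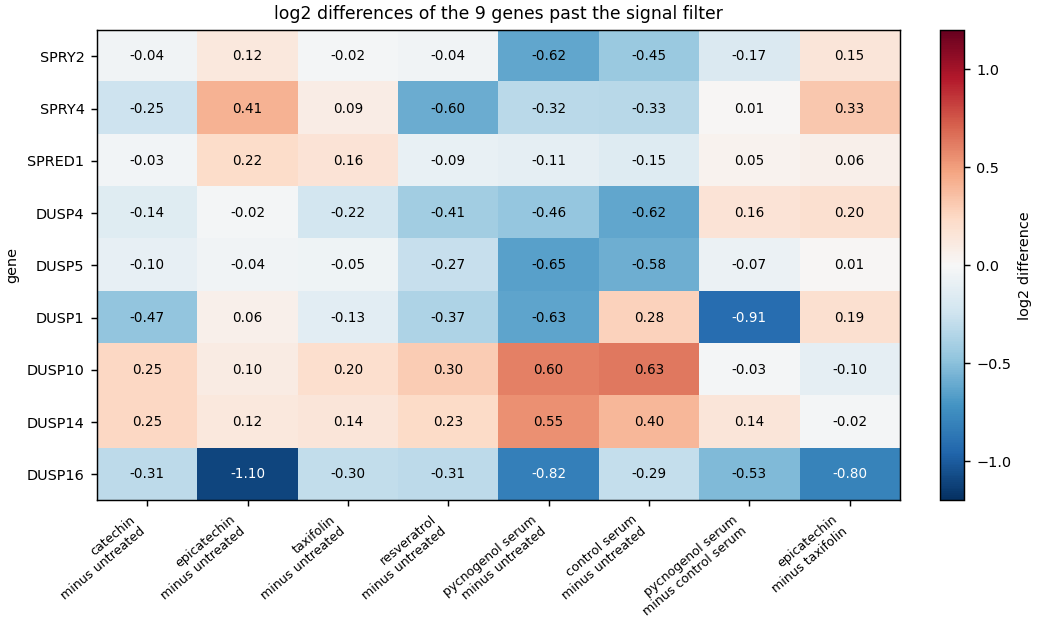
log2 differences (colour and printed value) of the 9 genes past the signal filter in 8 comparisons of single arrays. DUSP10 and DUSP14 are positive in every column against untreated, SPRY2 and DUSP5 have their most negative values in the columns of each serum against untreated, and the largest difference is that of DUSP16 with epicatechin, -1.10.

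The compounds gave 1 member past 2-fold, DUSP16 with epicatechin. That gene read 407, 236, 412 and 408 with catechin, epicatechin, taxifolin and resveratrol, 287 with pycnogenol serum, 414 with control serum and 506 untreated. The difference with epicatechin was -1.10 (log2), 2.14-fold lower, on a signal under the filter's 269, and the value was 0.21 with the mean of all 4 probe sets, of which only the main one passed the filter. The second brightest probe set, above the floor on all 7 arrays, gave 0.24 with epicatechin against untreated. In that comparison 0.314% of all genes passed 2-fold. No member did with catechin, taxifolin or resveratrol, where 0.455%, 0.465% and 0.728% of all genes did. The member medians were -0.10 for catechin, 0.097 for epicatechin, -0.025 for taxifolin and -0.27 for resveratrol, while those of all genes lay between 0.025 and 0.035.

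Within the 5 cultures without test serum, epicatechin gave the highest value for 4 of 9 members, SPRY2, SPRY4, SPRED1 and DUSP1, and resveratrol the lowest for 4, SPRY4, SPRED1, DUSP4 and DUSP5. Over all genes past the filter, epicatechin was the highest of the 5 in 22.1% and resveratrol the lowest in 23.2%. With resveratrol, SPRY4 differed from untreated by -0.60, 1.51-fold lower, and DUSP4 by -0.41, and with epicatechin SPRY4 differed by 0.41. These are readings of the main probe sets. The other DUSP4 probe sets, also past the filter, gave -0.015 and -0.075 with resveratrol, and catechin and taxifolin were their lowest of the 5. The other SPRED1 probe sets past the filter disagreed, with 0.31 and untreated lowest on one, and -0.86 and resveratrol lowest on the other. Catechin gave -0.47 for DUSP1, the lowest of the 5 values of that gene. DUSP10 and DUSP14 lay above the untreated value with all 4 compounds, by 0.097 to 0.30 and by 0.12 to 0.25, and the untreated value was the lowest of the 5 in 25.9% of all genes. These comparisons share the untreated array, whose own error enters all of them alike.

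Epicatechin and taxifolin were the compounds at an equal concentration, 6.25 ng/ml, and gave the 1 pair compared. Both are flavonoids with the same pattern of ring hydroxyls on the skeleton, and among their differences taxifolin carries a keto group where epicatechin has none. No member differed by 2-fold between them, where 0.324% of genes did. SPRY4 was 0.33 higher (log2) with epicatechin than with taxifolin and DUSP16 0.80 lower. On its second brightest probe set, below the filter, DUSP16 was instead 0.34 higher. The other 7 members past the filter lay between -0.10 and 0.20. Without replicates no interval can be put on these differences. Catechin and epicatechin are stereoisomers but were used at 11.25 and 6.25 ng/ml. Side by side, SPRY4 read 1086 and 1723 and DUSP1 4637 and 6718 in those cultures.

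Other genes of the pathway were read from lists that leave out the members. Of 4 further MAP kinase phosphatases DUSP7 alone passed the filter. It encodes a cytoplasmic phosphatase specific to ERK and lay on the other side from DUSP4 and DUSP5. Its signal was 2241, 1738, 1721 and 2568 with catechin, epicatechin, taxifolin and resveratrol, 4159 with pycnogenol serum, 3006 with control serum and 1975 untreated. Both serum values were above all others, and the serum mean minus the mean of the 5 was 0.80 (log2). SPRED2, a paralogue of SPRED1, was the 1 of 4 further Sprouty and SPRED genes past the filter. It read 4437, 6812, 4834 and 4199 with catechin, epicatechin, taxifolin and resveratrol, 4101 with pycnogenol serum, 4732 with control serum and 5947 untreated. As with the main probe sets of SPRY4 and SPRED1, epicatechin was the highest of the 5 cultures without test serum and resveratrol the lowest.

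Other transcripts that ERK induces, where past the filter, were mostly lower with the sera. Of 14 such genes past the filter, SPRED2 among them, 6 were lower with both sera than in all 5 other cultures. None of the 14 was higher, beside the 16.1% lower and 13.5% higher over all genes given above. This list, like the members, was chosen with earlier results of these data known, so its counts are no independent check. The remaining gene of the list, FOS, lay below the filter and went the other way. It read 70.7 with pycnogenol serum and 99.7 with control serum, and from 8.23 to 30.0, under the floor, in the other 5. As with DUSP6, these signals were not shown to be above background. Against untreated, 12 of the 14 lay below 0 with pycnogenol serum and 12 with control serum, where 47.5% and 48.7% of all genes did. The 6 were ETV5, ETV1, EMP1, EPHA2, IER3 and PHLDA1, and the list's median of serum mean minus the mean of the 5 was -0.34, against -0.010 over all genes. ETV5, an ETS transcription factor, read 7452, 8560, 7832 and 6757 with catechin, epicatechin, taxifolin and resveratrol, 3815 with pycnogenol serum, 4213 with control serum and 8557 untreated. Its difference was -1.17 with pycnogenol serum and -1.02 with control serum against untreated. ETV1, of the same family, differed by -0.58 and -0.81, and the membrane protein gene EMP1 by -0.29 and -0.56. In contrast EGR1, LIF and MYC were lower with pycnogenol serum than with control serum, by -1.44, -0.71 and -0.54. EGR1, an immediate early transcription factor, read 175 with pycnogenol serum, under the filter, and 475 with control serum.

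**Figure D4:**
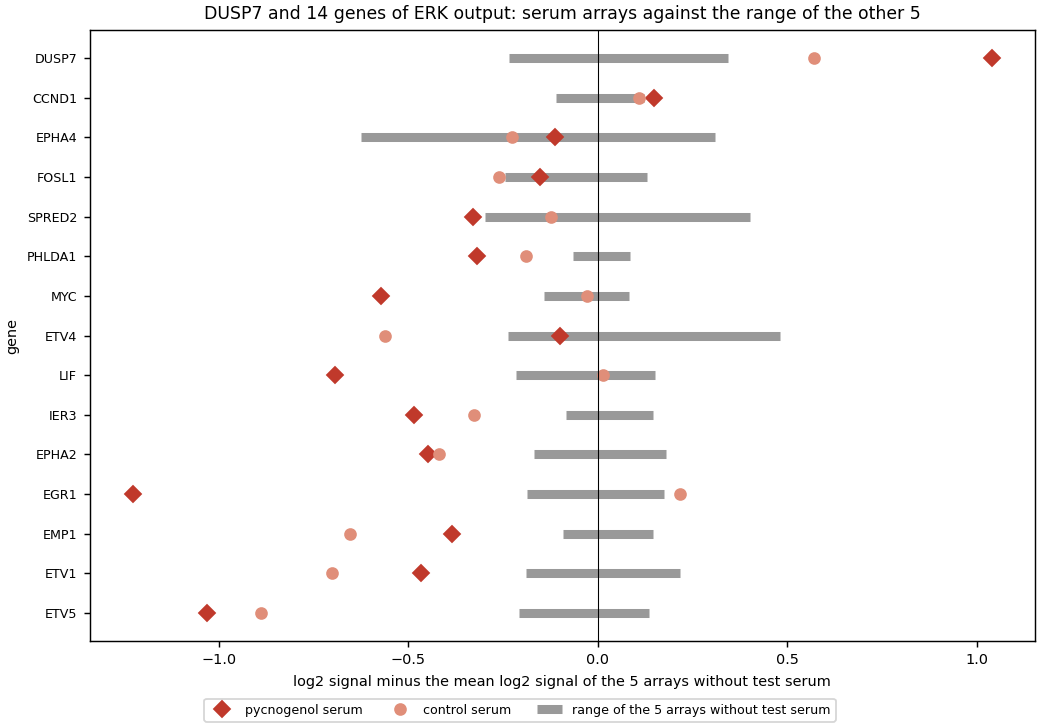
DUSP7 and the 14 ERK output genes past the filter, ordered by serum mean minus the mean of the other 5: log2 signal with pycnogenol serum (diamonds) and control serum (circles) against the range of the 5 arrays without test serum (grey bars), all relative to the mean of those 5. DUSP7 stands above its bar and ETV5, ETV1, EMP1, EPHA2, IER3 and PHLDA1 stand below theirs with both sera. EGR1, LIF, MYC and SPRED2 lie below with pycnogenol serum alone, and ETV4 and FOSL1 with control serum alone.

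The kinase chain itself showed no common shift. Of 21 cascade genes listed 13 were analysed and 12 passed the filter, with a median of -0.051 between pycnogenol serum and control serum and of -0.020 between control serum and untreated. MAP2K1, which encodes the ERK-activating kinase MEK1, read 4345 with pycnogenol serum, 6705 with control serum and 4144 untreated. The difference was -0.63 between the sera and 0.69 between control serum and untreated. Epicatechin gave the next highest value, 5244, and the other 3 compounds lay within 0.064 of untreated. MAPK9 and PTPN11 differed by -0.41 and -0.30 between the sera, and MAPK3 and HRAS by -0.63 and 0.28 between control serum and untreated. MAPK3 encodes ERK1 and HRAS a RAS protein.

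Genes under other control were read for comparison with DUSP1 and the serum pattern. These lists were chosen with earlier results of these data known, so their counts are no independent check. Of 6 glucocorticoid targets past the filter 2 were lower by 2-fold with pycnogenol serum than with control serum and none was higher, where 0.536% of all genes passed 2-fold in either direction. Their median was -0.45, against 0.0083 over all genes. KLF9 was at -1.52, TSC22D3 at -1.50 and ERRFI1, an inhibitor of the EGF receptor, at -0.69, while FKBP5 was at -0.16 and SGK1 at 0.11. Between control serum and untreated, FKBP5, KLF9 and TSC22D3 differed by 0.67, -0.52 and 0.43. Of 7 SMAD and serum control genes 5 lay above all 5 other cultures with both sera, where 13.5% of all genes did. None lay below, where 16.1% of all genes did. The median of these 7 between control serum and untreated was 0.94, against 0.0076 over all genes. Between control serum and untreated ID2 was at 1.78, ID3 at 1.53 and SKIL at 1.36. Between the sera SKIL was at -0.37, CCN2 at -0.25 and ID1 at 0.23.

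Profiles over the 7 arrays were compared for the members that spanned at least 1 on the log2 scale. Likeness was the root mean square difference of profiles centred on their own mean, so a small value means a close match, and it implies nothing on shared control. Nearest to SPRY4 were WWC3 at 0.11, KSR1 at 0.12 and SLC75A1 at 0.12. KSR1 encodes a scaffold of the RAF, MEK and ERK kinases and read 453, 576, 517 and 314 with catechin, epicatechin, taxifolin and resveratrol, 451 with pycnogenol serum, 410 with control serum and 482 untreated. Nearest to DUSP16 were USP26, KLHL23 and SLC39A3, at 0.14 to 0.16. For DUSP6, whose signals were not shown to be above background, FRMD6-AS1, INO80C and CRCP came nearest, at 0.24 to 0.26.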

How the data were processed

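RNA from 7 cultures was hybridised on Affymetrix U133 Plus 2.0 arrays with 54675 probe sets. The deposited intensity of each probe set was computed by the authors with MAS5, per the submitters' processing notes, whose version is not given in the sources used here. Per the deposited values, the intensity is linear and each array's mean after trimming 2% at both ends lies at 1000. Median signals ran from 114 to 136. The number of arrays limits the precision.

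From these values, signals under the 25th percentile, 34.9, were raised to it and put on the log2 scale. Probe sets of 1 gene (41097) were used, those of several genes (1801) or with no entry (11777) were not, and symbols were updated through RefSeq gene identifiers. Each of 19775 genes was read from its probe set of highest mean, and the 9888 at or above the median mean were compared. Groups held 1 array each and were not tested. A gene was counted at 2-fold or 1.5-fold, or when both serum arrays lay outside the range of the other 5, a split given by the labels.

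Named were all members, the 3 genes of each list (other MAP kinase phosphatases, other Sprouty and SPRED genes, cascade, ERK output, SMAD and serum control, glucocorticoid targets) that differed most in pycnogenol serum minus control serum and in control serum minus untreated, and the 3 nearest profiles. Further list genes were named after their values were seen. List genes missing from the annotation used were not analysed here. Members and lists were chosen with earlier results of these data known. Alternatives were quantile normalization, cyclic loess (span 0.3, 3 iterations), median centring, other floors and filters, other readings of probe sets, other folds and leaving out arrays. R 4.3.3, limma 3.58.1, Python 3.11.15, numpy 2.4.6 and pandas 2.3.3 were used, and the reading of genes and counts was tested on simulated data.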

Additional observations from a re-analysis of the deposited data

How the results depend on the processing

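No paired analysis was possible because each group held 1 array. The mean SD of log2 differences between cultures without test serum, 0.256, served as the yardstick for shifts, as there are no replicates. All 9 member medians moved by less than it under the 9 changes of normalization, floor, filter and probe set reading. The yardstick is a spread of single genes, and a median over members varies less, so this was easily met. Nor does it show that directions held where the main median was itself smaller than the yardstick. Such medians were -0.10 for catechin, 0.097 for epicatechin, -0.025 for taxifolin and -0.027 between the sera. Epicatechin against taxifolin, at 0.061, and the serum mean against the other 5, at -0.18, were also smaller. Median centring moved the median of all genes by 0.18 for control serum and 0.13 for pycnogenol serum against untreated. Under it 4 members lay outside the range of the 5 cultures, as DUSP4 and SPRED1 overlapped it, and under the mean of all probe sets 5, without SPRED1. Leaving out 1 array gave 6 to 7 such members and medians of -0.30 to -0.14: SPRY4 joined without resveratrol, and DUSP1 joined as higher without pycnogenol serum and as lower without control serum. Leaving out an array makes the rule easier to meet, most of all a serum array, since then 1 extreme array suffices. The share of all genes outside the range is not given for these settings, so the counts cannot be set against it. At 1.5-fold, 5 members were counted for pycnogenol serum against untreated, 2 for control serum against untreated, and 1 each between the sera, for resveratrol, and between epicatechin and taxifolin. The share of all genes past 1.5-fold is given above for the serum comparisons only. For resveratrol the member was SPRY4, with 2.07% of genes at or below its value. Between epicatechin and taxifolin it was DUSP16, with 0.384%. The epicatechin count of 1, which is DUSP16, became 0 at 3-fold, under a filter at the 75th percentile, and when all probe sets were averaged. That average adds 3 probe sets below the filter and gave DUSP16 0.21 in place of -1.10. Without a filter DUSP6 made the control serum count 1. Of 560 recomputed member differences 538 moved by less than the yardstick and 12 of the 22 others were of DUSP6. A main value above the floor on every array cannot move with the floor, so part of the 538 was fixed beforehand. The DUSP1 difference between the sera was -0.30 in the average of all probe sets, which adds 2 that were at the floor on 5 and 7 arrays.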
